A study of Arabidopsis thaliana with 12 samples.

Results

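The 10 genes described here belong to the phosphate starvation response of *Arabidopsis thaliana* roots. They were chosen by name rather than by a measured value, and all 10 were found by gene identifier among the 32678 genes of the count table. The members are the SPX-domain sensors *SPX1* (AT5G20150) and *SPX3* (AT2G45130), the long noncoding RNA *IPS1* (AT3G09922), the ubiquitin-conjugating enzyme gene *PHO2* (AT2G33770), the phosphate uptake transporters *PHT1;1* (AT5G43350) and *PHT1;4* (AT2G38940), the phosphate exporters *PHO1* (AT3G23430) and *PHO1;H1* (AT1G68740), the sulfolipid synthase gene *SQD2* (AT5G01220) and the purple acid phosphatase gene *PAP17* (AT3G17790).

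Root RNA was sequenced in 12 libraries, 3 for each combination of genotype (wild type or *clf*) and iron supply. Seedlings spent 12 days on B5 medium and were then moved for 3 days to medium with iron (+Fe, iron sufficient) or to iron deficient medium (-Fe), the latter made without iron and with the iron chelator ferrozine. Wild type was the Columbia ecotype, and *clf* was a single insertion line of *CURLY LEAF*, which encodes the main H3K27 methyltransferase of Polycomb Repressive Complex 2 and whose partly redundant partner *SWN* was not mutated. Iron was the only nutrient that the labels vary, and no group was labelled as starved of phosphate. *CLF* itself was 3.37-fold lower in *clf* than in wild type under +Fe (adjusted *p* = 0.00341, edgeR) and 3.81-fold lower under -Fe (adjusted *p* = 0.000871, edgeR), in the direction of the genotype labels. It overlaps its neighbours by 58 and 22 bases on the opposite strand.

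As background, plants short of phosphate switch on a shared set of genes through the transcription factor PHR1, which binds the P1BS element in promoters. SPX proteins hold PHR1 back when phosphate, read through inositol pyrophosphates, is plentiful. Downstream, miR399 lowers *PHO2*, whose product marks phosphate transporters such as PHO1 and the PHT1 family for degradation, and *IPS1* sequesters miR399 by target mimicry. Phosphate and iron meet in this pathway, since the ions form poorly soluble salts and PHR1 also binds the promoter of the ferritin gene *AtFER1*.

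The sequences of the miR399 module are shown first because they join 2 of the members, *PHO2* and *IPS1*. The mature miR399 sequences annotated by RefSeq (TAIR10.1) share a seed, bases 2 to 8 from the 5′ end, given in capitals.
miR399a: tGCCAAAGgagatttgccctg
miR399b and miR399c-3p: tGCCAAAGgagagttgccctg
miR399d: tGCCAAAGgagatttgccccg
miR399e: tGCCAAAGgagatttgcctcg
miR399f: tGCCAAAGgagatttgcccgg
The 5′ UTR of *PHO2*, on the minus strand of chromosome 2, held 5 stretches complementary to miR399, each with 19 paired bases (capitals) and 2 unpaired bases.
chr2:14282106-14282126: tAGGGCAAATCTtCTTTGGCA
chr2:14281973-14281993: tAGGGCAtATCTCCTTTGGCA
chr2:14281884-14281904: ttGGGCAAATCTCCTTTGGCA
chr2:14281827-14281847: tCGaGCAAATCTCCTTTGGCA
chr2:14281770-14281790: tAGaGCAAATCTCCTTTGGCA
All 5 end in the full complement of the seed. The stretch in *IPS1*, on the plus strand at chr3:3051224-3051247, pairs 18 bases with miR399b and differs from those of *PHO2* by a loop of 3 bases among the lower-case letters of its middle. It lies in a short reading frame that RefSeq annotates.
*IPS1*: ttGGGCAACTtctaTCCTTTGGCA

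The P1BS element was searched as GNATATNC, which is its own reverse complement, in the 1000 bases before each gene start. It was found before 6 of the 10 members (60%), against 20.3% of 27443 protein-coding genes with a window of that length. *SPX3*, *IPS1* and *PHT1;1* each had 2 elements, *SPX1*, *PHO2* and *SQD2* had 1, and *PHT1;4*, *PHO1*, *PHO1;H1* and *PAP17* had none in this window. The element nearest each gene start is shown in capitals with its flanks, written on the strand of the gene, because P1BS is the element through which PHR1 acts.
*SPX3*, chr2:18606309-18606338, plus strand: gctaaagctaaGCATATCCgctttcatatt
*SQD2*, chr5:90439-90468, minus strand: ttatgtgaagcGAATATTCattggaataga
*PHO2*, chr2:14283621-14283650, minus strand: aacgaattaacGTATATCCttttttttttt
*IPS1*, chr3:3050430-3050459, plus strand: aattctcaaaaGCATATTCacgtaagactc
*SPX1*, chr5:6801536-6801565, plus strand: tttcctatcaaGAATATTCcatggaatcca
*PHT1;1*, chr5:17402908-17402937, minus strand: ctatgtttttcGAATATGCttttttaaaat
They lie 90 (*SPX3*), 340 (*SQD2*), 526 (*PHO2*), 548 (*IPS1*), 735 (*SPX1*) and 768 (*PHT1;1*) bases before the start. A match of letters is a description of the sequence and does not show that PHR1 binds there.

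The 12 libraries held 18658428 to 28281420 counts. In each group the library least correlated with the other 2, over tested genes outside the lists, is said to stand apart. These were replicate 1 of wild type +Fe, wild type -Fe and *clf* -Fe and replicate 2 of *clf* +Fe, with mean correlations of 0.934 to 0.953 against 0.959 to 0.970 in the other 8. The clock genes given here were named after their values were seen. *CCA1* and *LHY* were at 2.97 to 6.67 and 3.14 to 6.62 CPM (counts scaled to library size, with TMM factors) in these 4 libraries. In the other 8 they were at 26.7 to 48.2 and 58.9 to 100.5 CPM. *TOC1* was higher in the 4 libraries, at 85.7 to 126 against 42.6 to 50.7 CPM. *GI* overlapped, at 81.4 to 125 against 54.4 to 102 CPM. All 21 markers of root cell types and green tissue were detected in every group. The summed level of 6 green shoot markers was 232 to 536 CPM in wild type +Fe and 45.4 to 291 in wild type -Fe. It was 269 to 837 in *clf* +Fe and 116 to 247 in *clf* -Fe. The library that stands apart was highest in wild type +Fe (536 against 232 to 245) and wild type -Fe (291 against 45.4 to 64.6). It was also highest in *clf* +Fe (837 against 269 to 366) and lowest in *clf* -Fe (116 against 130 to 247). The summed level of 4 markers of root epidermis and root hairs was lowest in the library that stands apart in all 4 groups, as *PHT1;1*, *PHT1;4*, *PHO1;H1* and *SQD2* were. So were 12.4% of all tested genes, and a sum does not show that each marker was lower. The sum was 35.2 CPM there against 86.2 to 86.4 in the other 2 libraries of wild type +Fe, 31.8 against 103 to 115 in wild type -Fe, 68.7 against 99.0 to 99.7 in *clf* +Fe and 52.9 against 106 to 164 in *clf* -Fe. The summed level of 3 endodermis markers was lowest there too, at 124 CPM against 176 to 189, 127 against 205 to 271, 183.4 against 186 to 201 and 167 against 183 to 308 in the same order of groups. The sum of 3 root meristem markers was highest there in wild type +Fe (23.5 against 13.98 to 14.9). It was also highest in wild type -Fe (21.1 against 11.95 to 12.9) and *clf* -Fe (13.4 against 9.63 to 12.7). In *clf* +Fe it was lowest (12.04 against 12.7 to 12.9). That of 5 stele markers was lowest there in wild type +Fe (162 against 208 to 224) and *clf* +Fe (184 against 193 to 204). It was highest in wild type -Fe (197 against 188.1 to 188.2) and *clf* -Fe (195 against 158 to 191). The part of these marker lists in the results below was not tested, and in whole roots fewer cells of a type and less RNA per cell cannot be told apart.

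Levels of the members spanned more than 3 orders of magnitude. On the FPKM scale, which divides counts by gene length and library size, the mean over the 12 libraries was 258 for *PHT1;1* and 191 for *PHO1*, the transporter that loads phosphate into the xylem. *PHO2* followed at 67.8 FPKM. *PHT1;4*, *SQD2*, *SPX1*, *PAP17* and *PHO1;H1* lay between 5.24 and 20.6 FPKM. Both *IPS1* and *SPX3*, widely used as markers of phosphate starvation, were near the limit of detection, with *IPS1* at 0.492 FPKM (74 counts in all 12 libraries) and *SPX3* at 0.158 FPKM (40 counts).

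**Figure D1:**
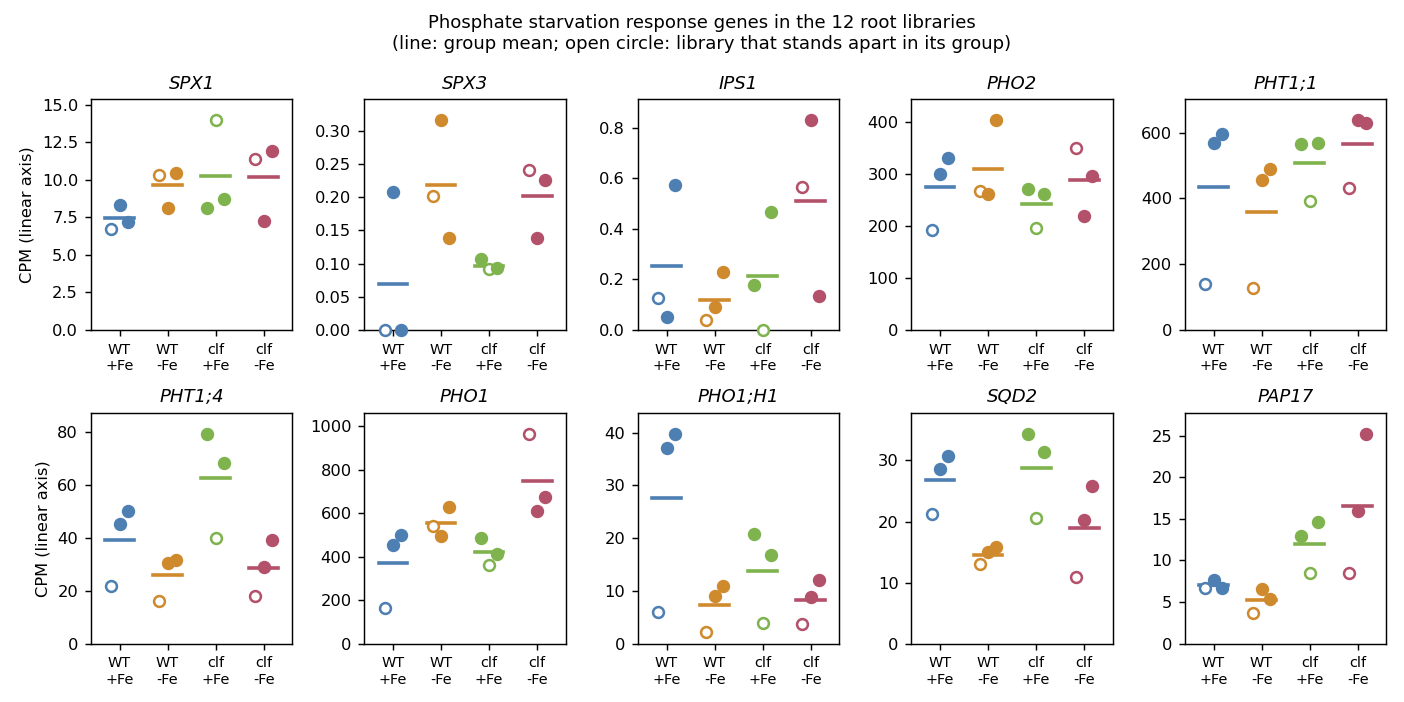
CPM of the 10 members (vertical axes, linear and starting at 0) in each library of the 4 groups. Lines are group means of 3 libraries and open circles the library that stands apart, which was the lowest of its group for *PHT1;1*, *PHT1;4*, *PHO1;H1* and *SQD2* in all 4 groups.

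Under iron deficiency in wild type, *PHO1;H1*, *SQD2*, *PHT1;4* and *PAP17* had lower mean levels and *PHO1* a higher one, but none of the 9 members that passed the filter on low counts passed the test with all 12 libraries (edgeR, adjusted *p* under 0.05), where 4.41% of 20168 tested genes did. Before adjustment, 2 members were lower at *p* under 0.05 (18.6% of all genes passed in either direction), and the count by DESeq2 was 0 (8.15% of all genes). Iron deficiency in *clf* gave 0 called members (1.77% of all genes), 2 before adjustment, of which 1 was higher and 1 lower (13.4%), and 0 by DESeq2 (4.37%). In *clf* against wild type under +Fe, 0 members were called (0.0694% of all genes), 0 before adjustment (3.37%) and 0 by DESeq2 (0.324%). Under -Fe edgeR called 0 (0.134%), *PAP17* alone was higher in *clf* before adjustment (7.72%), and it was also the only member called by DESeq2 (0.878%). For the difference between the iron responses of the genotypes the counts were 0 of 9 (0% of all genes), 0 before adjustment (1.59%) and 0 by DESeq2 (0.0119%).

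**Figure D2:**
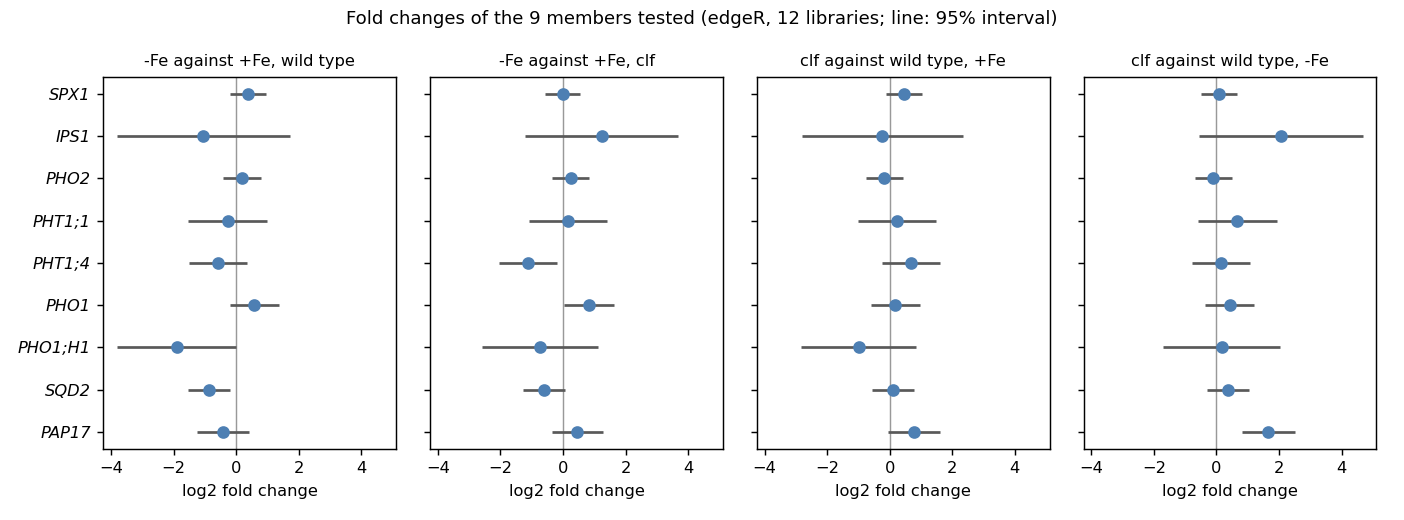
Log2 fold changes (horizontal axes) of the 9 members tested, with 95% intervals, in the 4 comparisons of 2 groups. Intervals that leave out 0 are those of *PHO1;H1* and *SQD2* for iron in wild type, *PHT1;4* and *PHO1* for iron in *clf*, and *PAP17* for genotype under -Fe, before adjustment over all genes.

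Among the sensors and signalling genes, levels differed little between groups relative to their spread. *SPX1*, whose protein binds PHR1, was at 6.75, 8.35 and 7.19 CPM in wild type +Fe, 10.3, 8.12 and 10.5 in wild type -Fe, 8.15, 13.96 and 8.74 in *clf* +Fe and 11.4, 7.28 and 11.9 in *clf* -Fe. All 4 groups overlapped, with wild type +Fe at the low end. The log2 fold change under -Fe was 0.37 (SE 0.25, adjusted *p* = 0.478, edgeR) in wild type and -0.01 (SE 0.25, adjusted *p* = 0.99, edgeR) in *clf*, with 95% intervals of -0.20 to 0.95 and -0.58 to 0.56. Between genotypes it was 0.47 (SE 0.25) under +Fe and 0.08 (SE 0.25) under -Fe.

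*SPX3*, a close relative that shares 66.5% of aligned coding bases with *SPX1*, did not pass the filter on low counts. Its counts were 0, 4 and 0 in wild type +Fe, 5, 7 and 3 in wild type -Fe, 3, 2 and 2 in *clf* +Fe and 6, 3 and 5 in *clf* -Fe. Both -Fe groups held more counts than the +Fe groups, 15 and 14 against 4 and 7, with overlap in wild type. Fitted without the filter, its log2 fold changes under -Fe were 1.64 (SE 1.12, adjusted *p* = 0.55, edgeR) in wild type and 1.01 (SE 1.06, adjusted *p* = 0.779, edgeR) in *clf*, so that a difference was not detectable at this depth.

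*IPS1* was as sparse, with counts of 3, 1 and 12 in wild type +Fe, 1, 2 and 5 in wild type -Fe, 5, 0 and 10 in *clf* +Fe and 14, 18 and 3 in *clf* -Fe. All groups overlapped, and libraries of the same group differed widely. Among the 4 comparisons of 2 groups the largest log2 fold change was that of *clf* against wild type under -Fe, 2.06 (SE 1.14, adjusted *p* = 0.724, edgeR), with a 95% interval of -0.57 to 4.69. Its sequence partner could not be followed, because the 6 *MIR399* primary transcripts were listed at 0 counts in all 12 libraries.

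*PHO2*, which carries the 5 miR399 sites shown above, was at 193, 299 and 331 CPM in wild type +Fe, 267, 262 and 403 in wild type -Fe, 271, 196 and 262 in *clf* +Fe and 351, 219 and 296 in *clf* -Fe. All 4 groups overlapped. Its log2 fold changes were small, with 95% intervals of -0.42 to 0.77 for iron in wild type, -0.35 to 0.84 for iron in *clf*, -0.77 to 0.42 for genotype under +Fe and -0.70 to 0.49 for genotype under -Fe.

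Of the uptake transporters, *PHT1;1* was the most abundant member and did not separate the groups. It was at 139, 567 and 594 CPM in wild type +Fe, 128, 457 and 490 in wild type -Fe, 565, 391 and 567 in *clf* +Fe and 433, 637 and 628 in *clf* -Fe. The first library of each wild type group was far below the mean of the other 2 (ratios of 0.240 and 0.271), and the groups overlapped in every comparison. Log2 fold changes were -0.27 (SE 0.55, adjusted *p* = 0.849, edgeR) for iron in wild type and 0.66 (SE 0.55, adjusted *p* = 0.805, edgeR) for genotype under -Fe. Its tandem paralog *PHT1;2* shares 97.7% of aligned coding bases and 39.4% of runs of 100 bases, so some reads could match both genes. No source used here states whether such reads were counted or left out. *PHT1;2* held 15 to 147 counts a library against 3169 to 15948 for *PHT1;1*. *PHT1;3*, the other gene of the tandem, was listed at 0 in all libraries.

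*PHT1;4*, a high-affinity transporter whose coding sequence is 71.7% identical to that of *PHT1;1*, was at 21.7, 45.3 and 50.2 CPM in wild type +Fe and 16.0, 30.7 and 31.8 in wild type -Fe. In *clf* it was at 79.2, 40.1 and 68.4 CPM under +Fe and 17.9, 29.1 and 39.1 under -Fe. Wild type groups overlapped, whereas every *clf* -Fe library lay below every *clf* +Fe library, by a narrow margin (10.9% of all tested genes were lower without overlap). The log2 fold change was -1.12 in *clf* (SE 0.40, adjusted *p* = 0.236, edgeR) and -0.58 in wild type (SE 0.40, adjusted *p* = 0.495, edgeR), and the difference between them was -0.54 (SE 0.56, 95% interval -1.85 to 0.76). Under +Fe, *clf* had the higher mean, 62.6 ± 20.2 against 39.1 ± 15.2 CPM (SD, n = 3 each), with overlap.

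The exporter *PHO1* had its higher means under -Fe in both genotypes. It was at 165, 452 and 497 CPM in wild type +Fe, 543, 493 and 627 in wild type -Fe, 484, 361 and 413 in *clf* +Fe and 962, 609 and 672 in *clf* -Fe. In *clf* the groups did not overlap (higher in 11.6% of all tested genes), and in wild type they overlapped by 2 libraries with nearly equal levels. The log2 fold change was 0.83 (SE 0.34, unadjusted *p* = 0.0324 and adjusted *p* = 0.312, edgeR) in *clf* and 0.58 (SE 0.34, adjusted *p* = 0.412, edgeR) in wild type. In wild type, replicate 1 gave a -Fe to +Fe ratio of 3.28, against 1.09 and 1.26 in replicates 2 and 3.

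*PHO1;H1*, which acts beside *PHO1* in loading phosphate into the xylem, showed the opposite order. Its levels were 5.95, 37.1 and 39.7 CPM in wild type +Fe, 2.15, 9.02 and 10.9 in wild type -Fe, 20.8, 3.97 and 16.8 in *clf* +Fe and 3.79, 8.84 and 12.2 in *clf* -Fe. Within each group the library that stands apart was lowest, at 0.155 to 0.361 of the mean of the other 2, and it alone made the wild type groups overlap. Wild type -Fe was 3.76-fold lower than wild type +Fe (log2 fold change -1.91, SE 0.82, unadjusted *p* = 0.0413 and adjusted *p* = 0.243, edgeR). The log2 fold change was -0.75 (SE 0.81, adjusted *p* = 0.769, edgeR) in *clf*, and the genotypes differed by -0.99 (SE 0.80) under +Fe and 0.17 (SE 0.81) under -Fe.

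*SQD2* encodes the last enzyme of sulfolipid synthesis, which replaces phospholipids when phosphate is short. It was at 21.2, 28.5 and 30.8 CPM in wild type +Fe, 13.0, 14.98 and 15.8 in wild type -Fe, 34.3, 20.5 and 31.4 in *clf* +Fe and 10.96, 20.3 and 25.8 in *clf* -Fe. Every wild type -Fe library lay below every wild type +Fe library (lower in 11.6% of all tested genes), and in *clf* the groups overlapped. Wild type -Fe was 1.84-fold lower (log2 fold change -0.88, SE 0.29, unadjusted *p* = 0.0114 and adjusted *p* = 0.125, edgeR), and the log2 fold change in *clf* was -0.60 (SE 0.29, adjusted *p* = 0.406, edgeR). The difference of these responses was 0.28 (SE 0.41, 95% interval -0.66 to 1.23). All 6 green shoot markers had negative log2 fold changes in both iron comparisons, with medians of -1.27 in wild type and -1.33 in *clf*, and 1 of them was called in wild type and 0 in *clf*. Within groups, the library that stands apart was lowest for *SQD2* in all 4. Its sum of green markers was highest in wild type +Fe, wild type -Fe and *clf* +Fe and lowest in *clf* -Fe. What part green tissue had in *SQD2* was not tested.

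*PAP17*, a purple acid phosphatase gene of the class that releases phosphate from organic compounds, was the only member with no overlap between the genotypes at either iron supply. Its levels were 6.71, 7.67 and 6.67 CPM in wild type +Fe, 3.68, 6.63 and 5.39 in wild type -Fe, 12.9, 8.44 and 14.6 in *clf* +Fe and 8.50, 15.9 and 25.2 in *clf* -Fe. At each iron supply the 3 *clf* libraries all lay above the 3 of wild type, as 4.48% of all tested genes did under +Fe and 7.65% under -Fe. The margin under +Fe was narrow, 8.44 against 7.67 CPM. Under -Fe, *clf* was 3.16-fold higher (log2 fold change 1.66, SE 0.36, 95% interval 0.82 to 2.50), which gave an adjusted *p* of 0.155 in edgeR and 0.00338 in DESeq2. Under +Fe it was 1.71-fold higher (log2 fold change 0.77, SE 0.36, unadjusted *p* = 0.0524 and adjusted *p* = 1, edgeR).

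The log2 fold change of *PAP17* under -Fe was -0.42 (SE 0.36, adjusted *p* = 0.596, edgeR) in wild type, where every -Fe library lay below every +Fe library by a narrow margin (lower in 11.6% of all tested genes). It was 0.46 (SE 0.35) in *clf*, with overlap, and the difference between these responses, 0.89 (SE 0.50, unadjusted *p* = 0.106 and adjusted *p* = 1, edgeR), did not pass the test. Same-numbered libraries under -Fe gave *clf* to wild type ratios of 2.31, 2.40 and 4.67. All 6 green shoot markers also had positive log2 fold changes in *clf* against wild type, with medians of 0.52 under +Fe and 0.34 under -Fe and 0 of them called, and their part was not tested. Reads of *PAP17* (chr3:6089381-6091231) could in part come from its neighbour AT3G17800, which overlaps it by 122 bases on the opposite strand, because no source used here states the strand setting of the counting.

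Which members passed depended on the libraries that stand apart. As a term in the model, the difference of these 4 libraries from the other 8 was a log2 value of -2.15 for *PHO1;H1*, -1.19 for *PHT1;1*, -1.02 for *IPS1*, -0.98 for *PHT1;4*, -0.69 for *PAP17*, -0.61 for *SQD2*, -0.25 for *PHO1*, -0.24 for *PHO2* and 0.25 for *SPX1*. For 4 of the 9 tested members the library that stands apart was the lowest in all 4 groups, as it was for 12.4% of all tested genes.

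**Figure D3:**
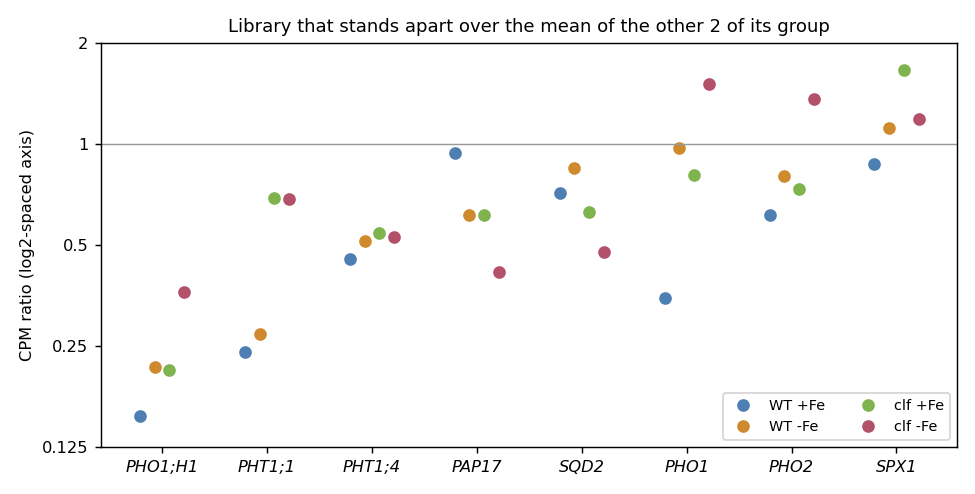
CPM of the library that stands apart in each group, divided by the mean of the other 2 libraries of that group (vertical axis, log-spaced), for 8 members in 4 groups. *IPS1* and *SPX3* are left out for their zeros. Ratios of *PHO1;H1* lie between 0.155 and 0.361, and those of *SPX1* between 0.869 and 1.65.

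Without those 4 libraries, 4 members were called lower under iron deficiency in wild type, where 13.3% of all tested genes were called lower. *PHO1;H1* was 3.87-fold lower (log2 fold change -1.95, SE 0.17, adjusted *p* = 7.9e-07, edgeR), *SQD2* 1.93-fold (-0.95, SE 0.14, adjusted *p* = 0.000107), *PHT1;4* 1.53-fold (-0.61, SE 0.14, adjusted *p* = 0.00385) and *PHT1;1* 1.23-fold (-0.29, SE 0.10, adjusted *p* = 0.0438). The fold changes of these genes were close to those with all libraries, while their SE was smaller. Leaving out the least correlated library of a group can itself lower the SE, and how far it did here was not tested. The direction of *PHT1;1* depended on single libraries, with a log2 fold change of 0.13 when only wild type -Fe replicate 1 was left out. With the 4 libraries kept and given a term of their own, *PHO1;H1*, *SQD2* and *PHT1;4* were called lower (6.53% of all genes). The term was set from these same counts, so it too can lower the SE, and how far it did was not tested.

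Same-numbered libraries of the wild type groups deviated together (correlations of 0.44 to 0.616), and the replicate numbers were also used as a block. The number set replicate 1 apart, whereas replicates 2 and 3 correlated nearly as highly with a library of another number (0.412 and 0.429). In the 6 wild type libraries with this pairing, 3 of 8 members tested were called lower (5.83% of all genes). *PHO1;H1* fell by 1.82 on the log2 scale (SE 0.15, adjusted *p* = 0.0028, edgeR), *SQD2* by 0.87 (SE 0.12, adjusted *p* = 0.0113) and *PHT1;4* by 0.56 (SE 0.10, adjusted *p* = 0.0251). The +Fe to -Fe ratios of the 3 pairs were 2.77, 4.12 and 3.65 for *PHO1;H1*, 1.63, 1.91 and 1.95 for *SQD2* and 1.36, 1.48 and 1.58 for *PHT1;4*, so each pair moved the same way. The ratios of *PHT1;1*, which was not among those called, were 1.09, 1.24 and 1.21, so each pair was lower under -Fe. With the block in the model of all 4 groups, 0 members were called.

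**Figure D4:**
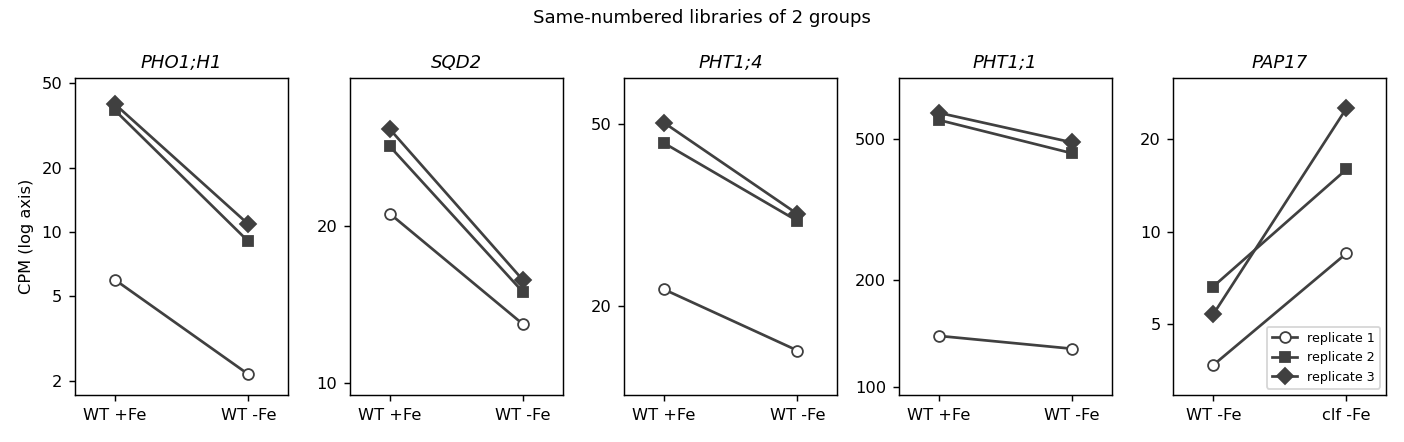
CPM (vertical axes, log scale) of same-numbered libraries joined by lines, for 4 members in wild type +Fe and -Fe and for *PAP17* in wild type -Fe and *clf* -Fe. Open circles are replicate 1, and *PHO1;H1* was 2.77 to 4.12 times lower under -Fe in the 3 pairs.

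In *clf*, leaving out the libraries that stand apart gave 4 called members under iron deficiency (14.6% of all genes in either direction). *PHO1* rose 1.43-fold (adjusted *p* = 0.0157, edgeR), and *PHT1;4* fell by 1.11 (adjusted *p* = 4.95e-05), *PHO1;H1* by 0.84 (adjusted *p* = 0.00334) and *SQD2* by 0.51 (adjusted *p* = 0.0166) on the log2 scale. With the term for these libraries, *PHT1;4* (adjusted *p* = 0.000446) and *SQD2* (adjusted *p* = 0.049) were called lower, against 2.53% of all genes. The only member whose iron response differed between genotypes in edgeR without the 4 libraries was *PHO1;H1*, with a difference of 1.11 (SE 0.24, adjusted *p* = 0.0231, 2.25% of all genes called).

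For genotype, *PAP17* was called higher in *clf* under -Fe without the 4 libraries (log2 fold change 1.77, adjusted *p* = 0.000131, edgeR), with the term (1.61, adjusted *p* = 0.0102, 0.907% of all genes higher) and without *clf* -Fe replicate 1 alone (1.98, adjusted *p* = 0.0367, 0.156%). It was not called with the replicate block, either in the 6 libraries compared (1.57, adjusted *p* = 0.12, edgeR) or in all 12 (1.60, adjusted *p* = 0.167, edgeR). Without the 4 libraries *SQD2* (0.58, adjusted *p* = 0.015) and *PHT1;1* (0.42, adjusted *p* = 0.0195) were called higher too, with 4.88% of all genes called higher. Under +Fe the same 8 libraries called *PAP17* (0.94, adjusted *p* = 0.0292) and *PHT1;4* (0.63, adjusted *p* = 0.0205) higher and *PHO1;H1* (-1.03, adjusted *p* = 0.00248) lower in *clf*, with 2.59% of all genes called. DESeq2 on these 8 libraries called 4 members for iron in wild type (23.6% of all genes in either direction), 4 for iron in *clf* (13.3%), 3 for genotype under +Fe (2.97%), 3 under -Fe (7.56%) and 2 for the difference between the iron responses (3.38%).

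The wider pathway was read from 64 other phosphate starvation genes, of which 49 were tested. In wild type under iron deficiency 0 were called higher and 1 lower in the model of 4 groups (4.41% of all genes in either direction), with a median log2 fold change of -0.11, beside -0.0026 over all tested genes and -0.42 over the 9 members. The gene called was *WRKY45*, a transcription factor that activates *PHT1;1*, at 8.23, 7.98 and 7.77 CPM under +Fe and 2.91, 2.93 and 2.76 under -Fe (log2 fold change -1.48, SE 0.29, adjusted *p* = 0.0152, edgeR). These groups lay far apart, but the call was lost when any 1 of replicates 2 and 3 of either wild type group was left out (adjusted *p* of 0.0537 to 0.0679, edgeR). The next by unadjusted *p* were *WRKY42* (-1.36), *SQD1* (-0.56), which encodes the enzyme before *SQD2* in sulfolipid synthesis, and *WRKY75* (-1.40), none of which passed in that model. DESeq2 called 4 of 48 genes, beside 8.15% of all genes. These were 3 genes lower, *WRKY45*, *WRKY42* (adjusted *p* = 0.028) and *WRKY75* (adjusted *p* = 0.0327), and 1 higher, *PPCK1*, a kinase of phosphoenolpyruvate carboxylase (adjusted *p* = 0.0454). *WRKY42* was also called by limma on FPKM. In edgeR, the term for the libraries that stand apart gave 2 genes higher and 8 lower (5.54% and 6.53% of all genes), among them *WRKY42* (adjusted *p* = 0.0416), *SQD1* (adjusted *p* = 0.0177) and *WRKY75* (adjusted *p* = 0.0255) lower. The 6 paired libraries gave 1 of 46 higher and 8 lower (6.45% and 5.83%), with *WRKY42* (adjusted *p* = 0.0409) and *WRKY75* (adjusted *p* = 0.043) lower. Without the libraries that stand apart 4 were called higher and 13 lower (13.9% and 13.3% of all genes, 27.3% together). *WRKY42*, *SQD1* and *WRKY75* were again among the latter (adjusted *p* of 0.00551, 0.00103 and 0.0118, edgeR). The lowest adjusted *p* of those called was that of *G3Pp1*, listed under phosphate transport, which was higher (1.56, adjusted *p* = 4.79e-08, edgeR). With the term it was called higher too (1.06, adjusted *p* = 0.033, edgeR). For *SQD1*, levels were 18.1, 23.3 and 25.5 CPM under +Fe and 14.8, 14.8 and 15.7 under -Fe, without overlap.

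In *clf* under iron deficiency 0 of the 49 were called in the model of 4 groups (1.77% of all genes), with a median of -0.21 beside -0.011 over all genes and 0.16 over the members. *PPCK1* came nearest (1.18, SE 0.28, adjusted *p* = 0.0605, edgeR), and its groups did not overlap at 91.3 to 124 CPM under +Fe and 186 to 288 under -Fe. *PPCK1* overlaps AT1G08645 by 472 bases on the opposite strand, so its reads could in part come from that gene. It was called higher by DESeq2 (adjusted *p* = 0.00301) and, in edgeR, with only the 6 libraries compared (adjusted *p* = 0.0338), with the replicate block in all 12 (adjusted *p* = 0.0191) and with the term for the libraries that stand apart (adjusted *p* = 0.00074), but not in the 6 libraries with a block (adjusted *p* = 0.165). *PAP12* (-0.35), *WRKY75* (-1.40) and *WRKY45* (-0.86) followed and did not pass in that model. DESeq2 called 3 of 48 genes (4.37% of all genes), *PPCK1* higher and *PAP12* (adjusted *p* = 0.019) and *WRKY75* (adjusted *p* = 0.0476) lower. In edgeR the term gave 1 gene higher and 3 lower (3.47% and 2.53% of all genes), with *WRKY75* among the latter (adjusted *p* = 0.0358). Without the libraries that stand apart 3 were called higher and 7 lower (8.92% and 5.64%), with *WRKY75* (adjusted *p* = 0.0155) and *PAP12* (adjusted *p* = 0.0279) lower.

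Between genotypes 0 of the 49 were called in either medium in the model of 4 groups (0.0694% of all genes under +Fe and 0.134% under -Fe), with medians of 0.10 under +Fe and 0.16 under -Fe, beside -0.0086 and -0.0038 over all genes and 0.17 and 0.38 over the members. The smallest unadjusted *p* under +Fe belonged to *GDPD1* (0.29), which overlaps AT3G02030 by 681 bases on the opposite strand, *WRKY6* (0.32), *AT4* (0.44) and *PHO1;H3* (0.53). Under -Fe it belonged to the transporter gene *PHT1;8* (3.13, SE 0.96, adjusted *p* = 0.393, edgeR), at 0.20, 1.29 and 2.13 CPM in *clf* and 0.08, 0.14 and 0.18 in wild type, followed by *ALMT1* (-1.34), *WRKY45* (0.65) and *SQD1* (0.35). For the difference between the iron responses, 0 of the 49 were called, and the smallest unadjusted *p* were those of *AT4* (-0.92), a second transcript that mimics the miR399 target, *PHL1* (0.39), *WRKY45* (0.62) and *PHT1;8* (1.95). Under -Fe *PHT1;8*, near the limit of detection in wild type (0.08 to 0.18 CPM), was called higher in *clf* with the term for the libraries that stand apart (adjusted *p* = 0.0455, edgeR, 0.907% of all genes higher). Without these libraries *PHT1;8* (adjusted *p* = 0.00209, edgeR), *WRKY45* (adjusted *p* = 0.0368) and *SQD1* (adjusted *p* = 0.0282) were called higher and *ALMT1* (adjusted *p* = 0.000265) lower in *clf* under -Fe (4.88% and 3.10% of all genes), 0 of the 49 were called under +Fe (2.59%), and *ALMT1* was called for the difference between the iron responses (adjusted *p* = 0.0492, 2.25%).

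Across the 12 libraries the members did not vary as 1 group. The closest members were *PHT1;4* and *SQD2* (Pearson *r* of log2 CPM 0.881), then *PHO1;H1* and *SQD2* (0.794), while *PHO1* and *SQD2* had an *r* of -0.343. Among all tested genes, *WEB1* had a high likeness to *PHT1;1* (0.985), and most like *SQD2* were AT5G35970 (0.992) and *RR3* (0.981). For *PHT1;4* these were *PAP27* (0.963) and *UGT71C1* (0.960), for *PHO1;H1* AT5G40270 (0.967) and AT5G35450 (0.966), and for *PAP17* AT1G45015 (0.952) and AT2G26690 (0.948). *PHO1* was nearest to *PSY1R* (0.937) and AT2G38950 (0.925), *PHO2* to AT2G39260 (0.888) and *CalS7* (0.887), *SPX1* to *UBC17* (0.887) and *RAC2* (0.855), and *IPS1* to *MPK20* (0.855) and *CEF* (0.851). As deviations from the group mean, *r* was 0.982 for *PHT1;4* and *PHO1;H1*, 0.915 for *PHT1;1* and *PHO1;H1* and 0.884 for *PHT1;1* and *PHT1;4*. It was 0.882 for *PHT1;4* and *SQD2*, and -0.627 for *SPX1* and *IPS1*. All these values describe libraries that share the 4 that stand apart.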

How the data were processed

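Root RNA of 12 libraries was prepared with a stranded mRNA kit. The authors aligned paired-end reads to TAIR10 (TopHat2 is named in the submitters' notes, with no version) and counted them per gene with the union mode of HTSeq. The deposited tables hold these raw counts and the FPKM values that the authors derived from them. No source used here gives the strand setting. A further column of the count table, of no sample, was not used (1 column).

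Counts were fitted in 1 model of 4 groups in R 4.3.3 by the robust quasi-likelihood method of edgeR 4.0.16, after filterByExpr and TMM normalization (8 residual degrees of freedom). Adjusted *p*-values are Benjamini-Hochberg values over 20168 tested genes, with a threshold of 0.05, and the common biological coefficient of variation was 0.302. CPM are TMM-normalized, and log2 CPM used a prior count of 2. The 95% intervals were built from the SE of the fit and a *t* quantile at the 8 residual degrees of freedom. They can differ from the edgeR tests, which also use degrees of freedom shared across genes. The tests were checked on simulated counts. These held no shift shared by the 4 libraries that stand apart and no pairing, so the check does not cover the fits that address them. DESeq2 1.42.0 and limma 3.58.1 on log2(FPKM + 1) and log2(FPKM + 0.1) were alternatives, as were RLE factors, other filters, a replicate block, each library left out, and the fits without the 4 libraries that stand apart or with them as a term. The 6 libraries with a block, and DESeq2 on 8 libraries, were chosen after the data were seen. The study's methods describe the 3 libraries of a group as biological replicates.

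The members and lists were chosen with earlier results of these data known, and *G3Pp1* was named after its values were seen. Every member was named, with *CLF*, each of the 64 other genes called in any comparison, the 4 of them with the smallest unadjusted *p* in each, and the 2 genes most like each member, of which 1 is not reported here. Deviations of same-numbered libraries from their group means correlated at 0.616, 0.44 and 0.463 in the iron comparison of wild type, at 0.448, 0.541 and 0.165 in the comparison of genotypes under -Fe, against highest correlations with a library of another number of -0.503, 0.412 and 0.429 and of -0.122, 0.0418 and 0.306. They were below 0 for at least 1 pair in the other 2 comparisons. Sequences and positions are from the RefSeq annotation of TAIR10.1.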

Additional observations from a re-analysis of the deposited data

How the results depend on the processing

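With 3 libraries a group and SE of 0.247 to 1.60 on the log2 scale for the members, modest differences were not detectable, and *SPX3* and *IPS1* were limited by depth. The number of members called was 0 in edgeR with all libraries in each comparison, and also with RLE factors, both filters, limma on FPKM and the block in the model of all 4 groups. For iron in wild type it was 4 without the 4 libraries that stand apart (also 4 by DESeq2), 3 with them as a term, 3 with the 6 libraries and a replicate block, and 0 to 1 when a single library was left out (*SQD2* passed without *clf* -Fe replicate 1, adjusted *p* = 0.0459, edgeR). For iron in *clf* it was 4 without the 4 libraries (also 4 by DESeq2) and 2 with the term. For *clf* against wild type it was 3 under +Fe and 3 under -Fe without the 4 libraries (also 3 and 3 by DESeq2), and under -Fe 1 by DESeq2, 1 with the term and 0 to 1 with a single library left out (*PAP17* passed without *clf* -Fe replicate 1). For the difference between the iron responses it was 1 without the 4 libraries and 2 by DESeq2 on the same 8 (*PHT1;1* and *PHO1;H1*). Leaving out the least correlated libraries, or giving them a term, can itself narrow the spread, and how far it did for the members was not tested. The block in the model of all 4 groups changed no call of a member or of *CLF*, and with it *PPCK1* was called higher for iron in both genotypes (for wild type at an adjusted *p* of 0.0419 and for *clf* at 0.0191, edgeR). Over all genes, 5470 were called for iron in wild type without the 4 libraries, 2433 with the term, 1746 by DESeq2 and 2406 with the 6 libraries and a block, against 890.

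No member passed in the edgeR model of 4 groups with all libraries, and signs turned as follows. The cause was not tested. Without the 4 libraries that stand apart, and by DESeq2 on the same 8, log2 fold changes were 0.19 and 0.18 for *SPX1* and -0.050 and -0.057 for *PHO2* (iron in *clf*), -0.038 and -0.037 for *PHT1;1*, -0.082 and -0.082 for *PHO1* and -0.024 and -0.026 for *AT4* (genotype under +Fe), and -0.13 and -0.13 for *PHO2* (difference). *IPS1* under +Fe was 0.016 by DESeq2 on these 8, *SPX1* for iron in *clf* was 0.0063 with the term, and *SPX1* for genotype under -Fe was -0.023 and -0.028 in limma. Leaving out single libraries gave ranges that cross 0. For iron in wild type these were -1.88 to 0.35 (*IPS1*), -0.055 to 0.34 (*PHO2*) and -0.70 to 0.13 (*PHT1;1*, which was called lower without the 4 libraries). For iron in *clf* they were -0.15 to 0.26 (*SPX1*) and -0.019 to 0.32 (*PHT1;1*). For genotype under +Fe they were -1.36 to 1.17 (*IPS1*), -0.19 to 0.52 (*PHT1;1*), -0.18 to 0.44 (*PHO1*) and -0.060 to 0.30 (*SQD2*). For genotype under -Fe they were -0.041 to 0.28 (*SPX1*), -0.27 to 0.13 (*PHO2*), -0.15 to 0.39 (*PHT1;4*) and -0.27 to 0.57 (*PHO1;H1*). For the difference they were -0.094 to 0.30 (*PHO2*), -0.0097 to 0.61 (*PHO1*) and -0.0042 to 0.56 (*SQD2*). Of the 64 other genes, *WRKY45* missed the threshold in 4 of the fits without a single library, those without replicate 2 or 3 of wild type +Fe or -Fe (adjusted *p* of 0.0537 to 0.0679, edgeR). *CLF* under +Fe missed it with only the 6 libraries compared (adjusted *p* = 0.0885, edgeR) and with these and a block (adjusted *p* = 0.491, edgeR).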
